A study of Homo sapiens with 10 samples.

Results

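Pre-neural crest cells (NCSC) were made from WA09, an established line of human embryonic stem cells (hESC), and their poly-A RNA was compared with that of the undifferentiated line. The comparison used 4 of the study's 10 libraries, 2 NCSC and 2 hESC. The labels do not say whether the 2 libraries of a cell type came from separate cultures. hESC were grown on matrigel for 4 days after seeding at 50000 cells per square centimetre, in medium with activin A (10 ng/mL), heregulin (10 ng/mL), FGF (8 ng/mL) and IGF-I (200 ng/mL). NCSC were seeded at 90000 cells per square centimetre and grown for 6 days with the same FGF, IGF-I and heregulin. Activin A was left out and 2 inhibitors were added: SB431542, which blocks the activin and NODAL receptors, and BIO, which blocks the kinase GSK3 and thereby activates WNT signalling. NCSC therefore differed from hESC in time, density and 3 agents at once. All cells were at passages 52 to 58 of this 1 line. Levels in 2 other derivatives of the line are set beside those of NCSC. Neural progenitors (NPC) had 6 days at 90000 cells per square centimetre with SB431542, the BMP receptor inhibitor LDN (500 nM), heregulin (10 ng/mL) and IGF-I (200 ng/mL), and neither FGF nor activin A. Splanchnic mesoderm (MESO) had 4 days at 50000 cells per square centimetre in all of the hESC factors at the same doses, with BMP-4 (100 ng/mL) and Wnt-3a (25 ng/mL) added.

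The unit of description was the locus. After restriction to chromosomes 1 to 22 and X and to 1 row per symbol, 22211 loci remained in the NCSC table, out of 22757 found in any table of the series. The authors deposited 1 FPKM value per locus and cell type (a level corrected for transcript length and library depth), so the values have no spread and the depth behind them is unknown. The words rose and fell are used only for loci with a q-value below 0.05 in the authors' deposited table. Of 14884 loci that the authors tested, 1514 rose (10.2%) and 2937 fell (19.7%), so 29.9% were called in either direction. The median log2(FPKM + 1) difference of the 13536 loci that reached 1 FPKM in hESC or NCSC was -0.23, and differences called centred below have this median subtracted, so that the median of all expressed loci is 0. With the fold centred in the same way and with p-values from the authors' statistic, 1075 loci rose and 1079 fell, so 49.9% of calls were higher in place of 34.0%. That recount leaves out 180 loci without a finite statistic. Of the called loci with a level above 0 in both cell types, 1265 rose and 2341 fell by at least 2-fold. The 122 called loci with a listed 0 in either cell type have no ratio and are not in these 2 counts.

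The neural crest forms at the border between neural plate and surface ectoderm under WNT, FGF and BMP signals. Border factors such as PAX3, MSX1 and the ZIC genes come on first. Specifier factors such as FOXD3, SOX10, TFAP2A, SNAI2 and SOX9 follow, and the cells then lose epithelial contacts and migrate. The head-to-tail position of neural tissue is read from forebrain factors such as SIX3 and RAX, hindbrain factors such as EGR2 and the HOX genes, whose clusters are activated in order from paralog 1 onwards along the body.

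The 4 genes used here to mark the pre-crest state belong to lists chosen with earlier results of these data known. Their direction is thus no independent support for that state. SP5 is counted below among the caudal progenitor genes and not in a crest list. All 4 genes were higher in NCSC and passed the authors' test. PAX3, a border and dorsal neural tube factor, was listed at 0.0169 FPKM in hESC and 18.6 in NCSC (locus at 223064605 to 223169936 on chromosome 2, build hg19). The q-value was 0.0057 in the authors' deposited table. Its ratio of 1102 came with a statistic of only 2.03, so that fold is uncertain. SNAI2, a repressor of epithelial genes, rose from 0.286 to 11.7 FPKM, 41.0-fold. SOX9, a crest and later cartilage factor, rose from 2.72 to 16.1, 5.91-fold. SP5, a zinc finger factor that is a direct WNT target, rose from 0.885 to 82.0, 92.7-fold. These genes were not restricted to NCSC: SNAI2 was listed at 80.9 FPKM in MESO and SOX9 at 23.4 in NPC and 31.9 in MESO. PAX3 was listed at 1.87 in NPC and 2.06 in MESO, and SP5 at 0.991 and 5.54.

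The genes on which the comparison turned by size were of several kinds. DLK1, a NOTCH ligand homolog, rose from 2.27 to 545 FPKM and IGFBP5, which binds insulin-like growth factors, from 0.813 to 268. CNTFR, the receptor of ciliary neurotrophic factor, rose from 0.713 to 69.7. PRTG, a cell surface protein of early neural and mesodermal tissue, rose from 0.658 to 62.6, APLNR, the apelin receptor, from 0.841 to 61.5, and FOXB1, a forkhead factor of the neural tube, from 0.684 to 55.0. GREB1L rose from 0.355 to 52.5, ILDR2 from 0.21 to 39.0 and CHCHD2 from 0.303 to 45.1. In total 40 loci rose from under 1 FPKM to at least 10, and 61 fell from at least 10 FPKM to under 1.

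The opposite end held stem cell and epithelial transcripts. ESRG, a noncoding RNA of pluripotent cells, fell from 265 to 2.25 FPKM and DPPA5, a pluripotency-associated protein, from 73.8 to a listed 0. ESRP1, a splicing regulator of epithelial cells, fell from 85.3 to 0.5. CDH1, the cadherin of epithelia, went from 83.6 to 0.823, 102-fold lower, and fell by the authors' test. GAL, galanin, fell from 125 to 1.5, PMAIP1, a pro-apoptotic protein, from 156 to 2.63 and TRDN, triadin, from 55.9 to 0.0336. The small noncoding RNA loci SNAR-C3, SNAR-B1 and SNAR-B2 fell to a listed 0, but they belong to a family of near-identical copies whose reads counting can divide arbitrarily, so their levels are uncertain.

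**Figure D1:**
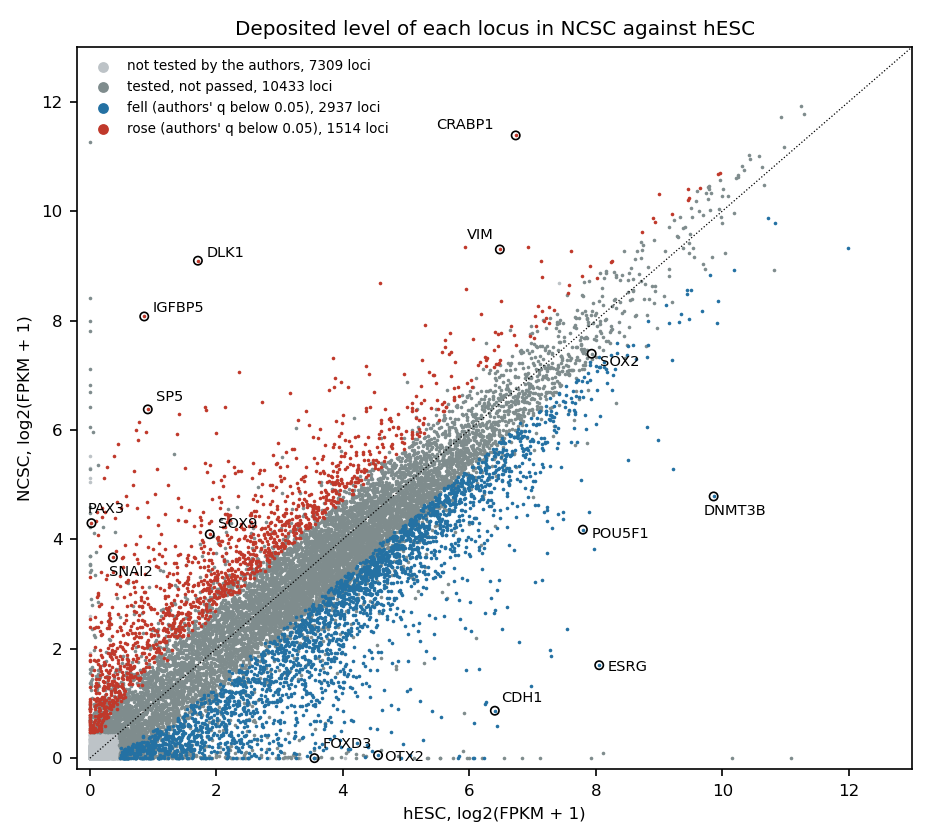
Each point is a locus, with log2(FPKM + 1) in hESC on the x axis and in NCSC on the y axis, coloured by the call from the authors' q-value. Marked points include PAX3, SNAI2, SP5 and SOX9 above the dotted line of equal level, and POU5F1, CDH1, OTX2 and FOXD3 below it; more loci fell (2937) than rose (1514).

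Among 16 neural plate border factors, 9 were tested, 6 rose (66.7%) and 1 fell (11.1%). ZIC2, a border and neural plate factor, rose from 13.7 to 123 FPKM, and ZIC5 from 3.51 to 16. GBX2, which acts at the border and in the anterior hindbrain, rose from 0.897 to 13.6. MSX1 and PRDM1 rose only to low levels, from 0.197 to 1.46 and from 0.229 to 1.15. TFAP2C, also a factor of early ectoderm, fell from 17.8 to 4.22. Several border factors stayed near 0 in NCSC: PAX7 at 0.0512 FPKM, ZIC1 at 0.116 and TFAP2A at 0.0463, none of which the authors tested. TFAP2A, named above as a specifier, is counted here and not among the specifiers. The list thus divided within families, with ZIC2 and ZIC5 high beside ZIC1, and PAX3 high beside PAX7.

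The 19 neural crest specifiers went both ways, with 8 rising (50%) and 5 falling (31.2%) of 16 tested. Their median centred difference was 0.36 over 15 members with at least 1 FPKM. Of those 15 members, 3 entered only because they reached 1 FPKM in NCSC. Beside SNAI2 and SOX9, ZEB2, a repressor of epithelial genes, rose from 0.175 to 21.6 FPKM. It was also listed at 17.6 in NPC and 15.3 in MESO. SNAI1, of the SNAI2 family, rose from 5.34 to 10.4, ID3, an inhibitor of basic helix-loop-helix factors, from 53.2 to 108 and SOX5 from 0.24 to 2.66. FOXD3, which maintains both pluripotent cells and crest progenitors, fell from 10.7 to a listed 0. ETS1 fell from 26.6 to 3.31, MYC from 36.3 to 3.39, and MYB from 6.46 to 0.243. SOX10, the factor of migrating crest and glia, was 2.57 in hESC and 2.91 in NCSC (q = 0.765 in the authors' deposited table). TFAP2B was 0.00441 and 0.0987, and TWIST1 0.19 and 0.336, and neither was tested. Of the 4 genes used here to mark crest proper, SOX10 was level with hESC, FOXD3 was at 0, and TFAP2B and PAX7 were under 0.1 FPKM.

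Of 17 tested surface and effector genes of migrating crest, 5 rose (29.4%) and 4 fell (23.5%), beside 10.2% and 19.7% of all tested loci. The share that fell was thus near that of all loci. NRP2, a semaphorin receptor, rose from 4.05 to 26.7 FPKM and CXCR4, a chemokine receptor, from 1.87 to 10.6. NGFR, the p75 receptor by which crest cells are often sorted, rose from 5.79 to 12.9, and CDH11, a mesenchymal cadherin, from 2.3 to 5.26. ERBB3, the neuregulin receptor of crest, fell from 19.4 to 2.21, KIT from 9.55 to 1.6, EDNRB, the endothelin receptor, from 15.3 to 5.21, and PDGFRA also fell. CDH6, a cadherin of newly formed crest, was 0.122 in hESC and 1.79 in NCSC (q = 0.0603 in the authors' deposited table).

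Genes of crest derivatives were mostly near 0, and 14 of 24 were not tested. MITF, the pigment cell factor, fell from 0.739 to a listed 0. RET, a receptor of enteric crest, fell from 5.1 to 1.05. Of the 5 that rose, PMEL, a pigment granule protein, was already at 55.8 in hESC and reached 109 in NCSC, ALX1, of facial mesenchyme, went from 0.236 to 4.18, and PRPH, peripherin, from 0.872 to 3.09.

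**Figure D2:**
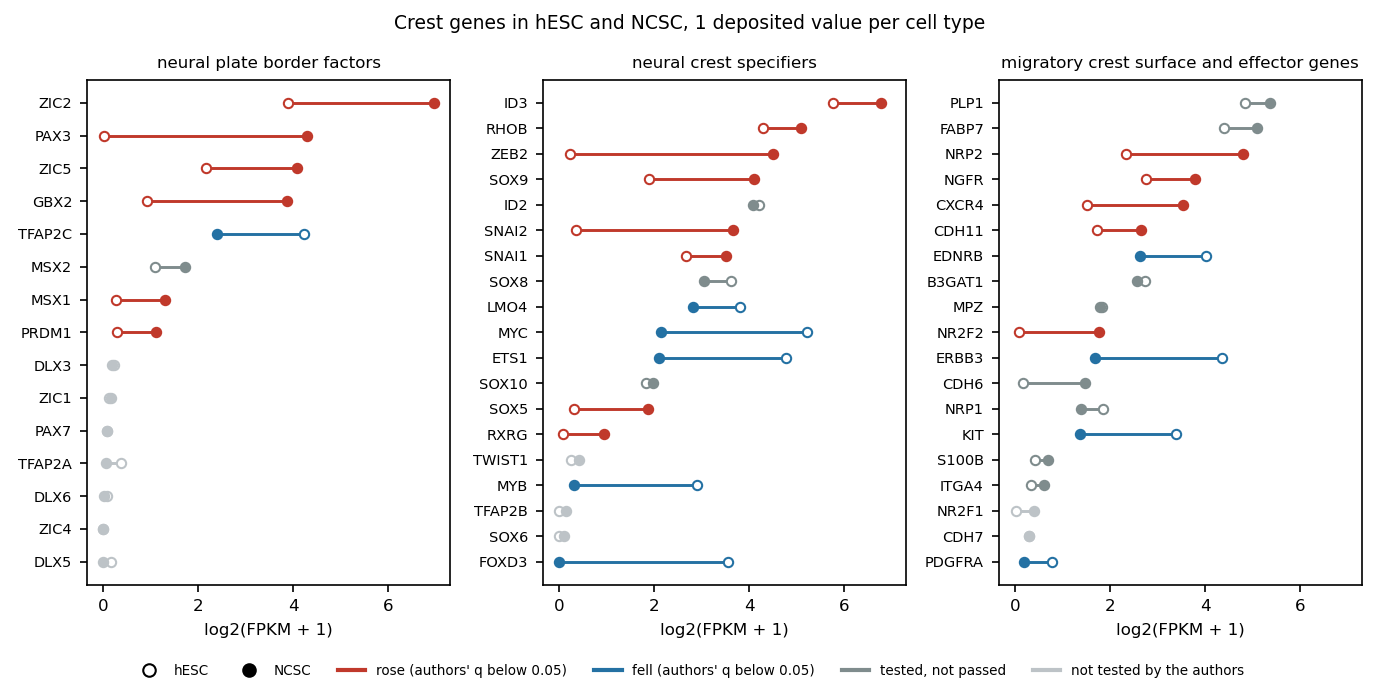
Open circles give log2(FPKM + 1) in hESC and filled circles in NCSC, for border factors, specifiers and migratory genes, ordered by the NCSC level and coloured by the authors' call. PAX3, ZEB2 and SNAI2 moved from near 0 to above 10 FPKM, FOXD3 and MYB moved the other way, and SOX10 barely moved.

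HOX transcripts were nearly absent from hESC and present in part in NCSC. Of 35 HOX loci, none reached 1 FPKM in hESC and 10 did in NCSC. Of these 35 loci 7 rose, 0 fell, 7 were tested without passing and 21 were not tested. The HOXB cluster on chromosome 17 held 94.3 of 111 FPKM summed over all HOX loci. HOXB1, of the hindbrain, rose from 0.48 to 26.9 FPKM, HOXB2 from 0.139 to 20.3 and the merged locus of HOXB3 and HOXB4 from 0.0919 to 15.9. The merged locus had a statistic of only 1.33, so its fold is uncertain. HOXB9, of the trunk, rose from 0.0761 to 21.5 and HOXB7 from a listed 0 to 2.45. Between them HOXB5 and HOXB6 were at 0.621 and 0.397 in NCSC, and HOXB8 at 6.2 (q = 0.0574 in the authors' deposited table), so HOXB5 to HOXB8 were lower than both HOXB9 and the loci of HOXB1 to HOXB4. HOXB13, the last locus of the cluster, was at 0.00527 and was not tested.

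The overlapping noncoding RNA HOXB-AS3 was listed at 0 in hESC and 21.3 FPKM in NCSC (q = 0.251 in the authors' deposited table). It lies in the region of HOXB5 and HOXB6, and whether counting used the strand is not given in the sources used here, so reads of these loci cannot be told apart with certainty.

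The other HOX clusters were low. HOXA2 rose from a listed 0 to 4.80 FPKM and HOXA4 from a listed 0 to 0.474. HOXA3 reached 1.66 without passing. The merged locus of HOXC4, HOXC5 and HOXC6 reached 2.05, and HOXD4, the highest of its cluster, 0.693. Loci of paralogs 1 to 4 held 69.2% of the summed HOX FPKM. The 11 loci with paralogs 10 to 13 were at most 0.117 FPKM in NCSC.

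For orientation, 15 of 32 HOX loci of the MESO table reached 1 FPKM in MESO, among them HOXA13 at 13.6 and HOXB6 at 34.7, loci that were at 0 and 0.397 in NCSC. HOXB1 was 3.54 in MESO and HOXA2 0.0471. HOXB9 was at 14.8 in MESO, and HOXB7 and HOXB8 at 11.7 and 16.8. HOXB2 had no value in MESO, and the merged locus of HOXB3 and HOXB4 had none in MESO or NPC, so these could not be compared. No HOX locus with a value in NPC reached 1 FPKM there. These tables share the hESC libraries and the difference between derivatives was not tested.

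**Figure D3:**
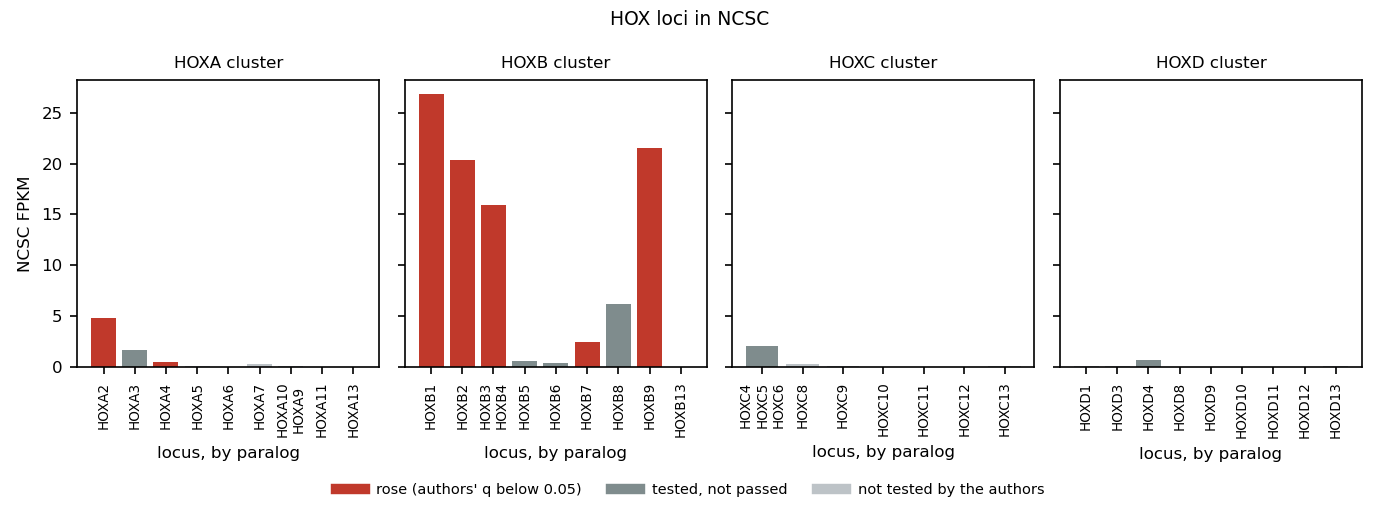
Bars give the NCSC FPKM of HOX loci by cluster and paralog, coloured by the authors' call against hESC. HOXB1, HOXB2, the merged HOXB3 and HOXB4 locus and HOXB9 stand between 15.9 and 26.9 FPKM (the fold of the merged locus is uncertain), with HOXB5 and HOXB6 under 1.

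Forebrain factors were near 0 in NCSC. OTX2, which marks the forebrain and midbrain and is also expressed in hESC, fell from 22.5 to 0.0376 FPKM, a 599-fold ratio, where NPC were listed at 153. SIX3, RAX and LHX2, of the eye field and forebrain, were at 0.0415, 0.00572 and 0.122 FPKM in NCSC. In NPC these 3 genes were at 54.9, 30.1 and 29.0. Of the 14 forebrain factors 12 were not tested in NCSC, and the 2 tested both fell. Factors of the midbrain and its border with the hindbrain were also low: EN1 and WNT1 were at 0 and 0.021 FPKM, PAX2 rose from a listed 0 to 0.721, and PAX8 was 0.00531 and 1.94 without passing.

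Hindbrain factors rose in 7 of 11 tested cases (63.6%), and 0 fell. EGR2, which patterns segments of the hindbrain, rose from 0.502 to 23.6 FPKM. MEIS2, a HOX cofactor, rose from 0.123 to 13.6 and MEIS3 from 12.1 to 28.8. IRX3 rose from 1.62 to 4.09, CYP26B1, a retinoic acid degrading enzyme, from 0.172 to 1.41 and MEIS1 from 0.0571 to 0.863. EGR2 was listed at 3.12 in NPC and 0.129 in MESO. MEIS2 was at 11.25 in NPC and 11.1 in MESO, so its level was not particular to NCSC.

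Of 18 tested genes of the caudal progenitors that build the trunk, 6 rose (33.3%) and 4 fell (22.2%), the latter near the 19.7% of all tested loci. Beside SP5, DLL1, a NOTCH ligand, rose from 4.98 to 25.5 FPKM, WNT8A from 0.522 to 8.55, SP8 from 0.765 to 5.79 and WNT5B from 1.89 to 7.68. T, brachyury, the factor of the primitive streak and axial progenitors, fell from 0.57 to 0.0779, FGF4 from 7.12 to 0.18 and CYP26A1 from 3.46 to 0.422. CDX2, the caudal homeobox factor that activates trunk HOX genes, was 0.00943 in hESC and 6.51 in NCSC, and FGF3 0.0653 and 12.6, but neither passed (q = 0.391 and q = 0.096 in the authors' deposited table). CDX1 and CDX4 were at 0.261 and 0.0238 in NCSC.

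Of 16 genes of paraxial mesoderm, which shares progenitors with the trunk neural tube, 7 were tested, 1 rose and 0 fell. TBX6, its selector factor, was 2.53 in hESC and 1.66 in NCSC, MSGN1 was 0 and 0.0507, and MESP2 0.249 and 0.478. LFNG, a modifier of NOTCH in the segmenting mesoderm, was 11.7 and 19.4, HES7 0.113 and 1.04, MESP1 0.205 and 0.584 and TCF15 3.90 and 2.65, none of which passed. The gene that rose was MEOX1, from a listed 0 to 1.05. Summed over the list the level was 19.4 FPKM in hESC and 27.4 in NCSC.

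**Figure D4:**
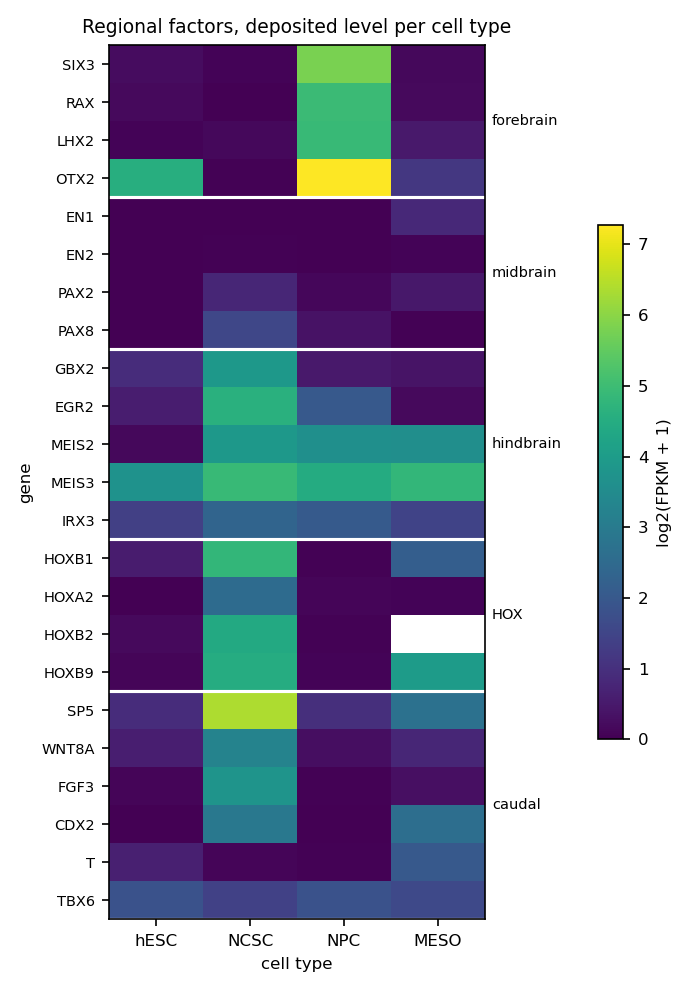
The colour gives log2(FPKM + 1) of regional factors in hESC, NCSC, NPC and MESO, each from the authors' tables, with a white cell where the locus was merged with others. NCSC are dark over the forebrain rows, where NPC are bright (OTX2 153 FPKM against 0.0376), and bright over EGR2, HOXB1, HOXB2, HOXB9 and SP5.

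General neural progenitor genes rose in 10 of 19 tested cases (52.6%), and 0 fell. SOX1, a neuroectoderm factor, rose from 0.284 to 9.56 FPKM, SOX3 from 2.42 to 14.9, SOX11 from 20.6 to 84.2 and POU3F2, a neural POU factor, from 0.135 to 6.08. NCAM1, a neural adhesion molecule, rose from 0.455 to 6.67. SOX2, shared by pluripotent and neural cells, was 244 in hESC and 167 in NCSC without passing. PAX6 and HES5 were picked after their values were seen. PAX6 was 0.0902 and 0.348 and was not tested, against 38.0 FPKM in NPC, and HES5, a NOTCH target of neural progenitors, was 0.216 and 0.61, against 50.9 in NPC.

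On the dorsal side of the neural tube, OLIG3, a factor of dorsal progenitors, rose from 0.322 to 19.9 FPKM, and was 0.0298 in NPC. Roof plate genes stayed low: LMX1A was at a listed 0, WNT1 at 0.021 and GDF7 at a listed 0, and BMP4 fell from 15.0 to 3.27. On the ventral side, OLIG2 rose from 0.193 to 2.07. NKX6-1, a ventral factor, was 0.0428 in hESC and 16.3 in NCSC and is given for that size, although it missed the threshold (q = 0.277 in the authors' deposited table). FOXA2, of the floor plate and endoderm, fell from 0.583 to 0.112. Of 10 neuronal genes tested, 2 rose and 0 fell: MAP2 from 0.737 to 15.7 and STMN2 from 0.613 to 12.3. DCX, a marker of young neurons, was 0.825 and 0.425, and ELAVL4 0.429 and 0.138.

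Of 21 pluripotency genes tested 16 fell (76.2%) and 0 rose, and the other 5 did not pass. The list had a median centred difference of -2.52. PRDM14 fell from 75.6 to 1.03 FPKM, L1TD1, an RNA-binding protein, from 186 to 4.13, DNMT3B, a DNA methyltransferase, from 930 to 26.6 and ZSCAN10 from 75.4 to 0.997. POU5F1, the gene of OCT4, fell from 221 to 17.1 and ZFP42 from 98 to 14, so neither was near 0. In bulk RNA a smaller share of undifferentiated cells and less RNA per cell cannot be told apart. NANOG was listed at 15.6 and 0.0156 FPKM (q = 0.0396 in the authors' deposited table). It is not counted here, because its FPKM in another table of the study, that of definitive endoderm, was written with more digits than the rest.

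Defining markers of other cells were low. The endoderm genes SOX17 and GATA6 were at 0 and 0.00602 FPKM in NCSC, the lateral mesoderm genes HAND1, GATA4 and TBX20 at 0.0327, 0.00681 and 0.0444, and the endothelial and blood genes PECAM1, CDH5 and TAL1 at 0.00814, 0.189 and 0.0144. TP63 and KRT5, of surface ectoderm, were at 0.00697 and 0, and the trophoblast genes CGA, VTCN1 and GATA3 at 0, 0.286 and 0.0343. Over the whole lists, 1 of 8 tested placode and surface ectoderm genes rose (12.5%) and 2 fell (25%). Of 11 endoderm genes 1 rose (9.09%) and 3 fell (27.3%). Among all tested loci 10.2% rose and 19.7% fell, so these small counts are near the shares of all loci. The genes that rose were EYA1, from 0.359 to 2.46, and CXCR4, which is also a crest gene. Summed over each list, placode and surface ectoderm genes came to 33.9 FPKM in hESC and 18.6 in NCSC, endoderm genes to 38.9 and 14.4, and lateral and cardiac mesoderm genes to 47.9 and 6.93. Fibroblast and smooth muscle genes stood apart from this, with 6 risen and 2 fallen of 9 tested and a sum of 179 in hESC and 817 in NCSC. Most of that sum was COL1A2, 22.9 and 413, and COL1A1, 89.8 and 329. ACTA2, smooth muscle actin, rose from 1.63 to 19.5, PDGFRB from 1.55 to 13.8 and DES, desmin, from 3.05 to 14.9. Smooth muscle genes did not all go this way. CNN1 fell, as did the merged locus that holds TAGLN (q = 0.0281 and q = 0.0394 in the authors' deposited table). The part of such cells in the collagen and mesenchymal values below was not tested.

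Epithelial junction genes fell in 17 of 21 tested cases (81%), and 0 rose, with a median centred difference of -2.68. CDH1 and ESRP1 led them. AP1M2, which sorts proteins to the basolateral membrane, fell from 66.0 to 0.57 FPKM, MARVELD3, a tight junction protein, from 12.3 to 0.131 and CLDN6 from 506 to 55.1. KRT8 and KRT18, the keratins of simple epithelia, fell from 90.3 to 38.8 and from 82.0 to 24.2. Mesenchymal genes rose in 10 of 15 tested cases (66.7%) and fell in 2. ZEB1 rose from 0.0778 to 6.70, beside ZEB2 and SNAI2. MMP2, a matrix protease, rose from 5.00 to 40.9, COL1A2 from 22.9 to 413 and VIM, vimentin, from 88.4 to 629. CDH2, N-cadherin, rose from 15.7 to 39.0, so in FPKM, a level per length, it exceeded CDH1 in NCSC, and in hESC the order was the reverse. FN1, fibronectin, fell from 31.1 to 16.

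Adhesion and guidance families differed in how their members went. Of 14 tested cadherins 6 rose and 6 fell: CDH23 rose from 1.29 to 6.77 FPKM and CDH3, P-cadherin, fell from 64.3 to 3.98. Among ephrins and EPH receptors 9 rose and 5 fell of 19 tested. EFNB1, an ephrin of crest cells, rose from 1.66 to 77.3, EPHA4, a receptor patterned in the hindbrain, from 1.62 to 26.1 and EPHB3 from 1.18 to 16, whereas EPHA1 fell from 36.2 to 1.07. Semaphorins, plexins and neuropilins rose in 9 (31%) and fell in 7 (24.1%) of 29 tested cases, with SEMA3C at 0.619 and 5.44 and SEMA6A at 115 and 24.1. Clustered protocadherins rose in 8 of 18 tested cases and fell in 0, such as PCDHB2 from 6.77 to 19.8 and PCDHB16 from 0.221 to 3.05. These genes are close in sequence, and counting can divide their reads. Collagens rose in 13 of 31 tested cases (41.9%) and fell in 4. COL2A1, the cartilage and notochord collagen, rose from 1.60 to 59.6, COL11A1 from 3.31 to 30.3 and COL4A5, of basement membranes, from 4.05 to 37.2. Integrins rose in 6 (31.6%) and fell in 5 (26.3%) of 19 tested cases. ITGA5, the fibronectin receptor subunit, was at 4.8 and 11 and ITGB4, of hemidesmosomes, at 4.61 and 0.209. For integrins, and for semaphorins with plexins and neuropilins, the share that fell was not far from the 19.7% of all tested loci.

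WNT target and feedback genes, the readout of the pathway that BIO activates, rose in 7 of 17 tested cases (41.2%) and fell in 3. Beside SP5, TNFRSF19 rose from 0.613 to 37.1 FPKM, LEF1, a nuclear partner of beta-catenin, from 0.346 to 24.6 and NKD1, a feedback inhibitor, from 1.04 to 27.3. TCF7 and BAMBI were among the 3 that fell. AXIN2, the most widely used target, was picked after its values were seen: it was 18.5 in hESC and 29.6 in NCSC (q = 0.0683 in the authors' deposited table). LEF1 and TNFRSF19 were at 24.8 and 29.4 FPKM in MESO and at 5.30 and 2.87 in NPC. SP5 went otherwise, at 5.54 in MESO and 0.991 in NPC against 82.0 in NCSC. MESO had received both Wnt-3a and BMP-4, and the part of either agent in these levels was not tested. Receptors changed too. FZD2 rose from 2.96 to 60.7 and FZD10, of the dorsal neural tube, from 0.505 to 8.36, while FZD5 fell from 31.6 to 2.42. Among ligands WNT5A rose from 1.03 to 3.04 and WNT3 fell from 6.42 to 1.21. Secreted antagonists were split, with SFRP1 at 19.6 and 84.0 and SFRP5 at 5.53 and 0.325.

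The promoters of WNT target genes were searched for the letters CTTTGAT or CTTTGTT on either strand. These are only some forms of the core that TCF and LEF factors bind, and other forms were not searched for. The RefSeq windows ran from 250 bases before to 50 after the start (GRCh38.p14). Of 10 list genes with a promoter in that table, 2 held a match (20%), beside 7.61% of all 35116 promoters. The 2 were SP5, which rose, and DKK1, a secreted WNT inhibitor that did not pass (1.48 in hESC and 1.89 in NCSC). Both are shown with the matched letters in capitals, SP5 at chr2:170715087-170715386 and DKK1 at chr10:52314031-52314330, both on the plus strand of GRCh38.p14.
SP5: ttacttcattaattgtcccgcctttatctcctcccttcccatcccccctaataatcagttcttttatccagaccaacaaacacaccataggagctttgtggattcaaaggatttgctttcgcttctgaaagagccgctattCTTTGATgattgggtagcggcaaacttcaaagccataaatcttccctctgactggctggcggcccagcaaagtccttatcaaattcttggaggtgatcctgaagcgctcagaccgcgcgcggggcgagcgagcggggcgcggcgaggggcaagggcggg
DKK1: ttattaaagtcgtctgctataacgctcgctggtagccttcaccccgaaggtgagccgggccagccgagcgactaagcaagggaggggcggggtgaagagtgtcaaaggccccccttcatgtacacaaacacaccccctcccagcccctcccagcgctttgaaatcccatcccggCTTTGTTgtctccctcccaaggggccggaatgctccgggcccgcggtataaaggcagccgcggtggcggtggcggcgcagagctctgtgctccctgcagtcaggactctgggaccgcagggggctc
Both matches lie upstream of the start. SP5 holds CTTTGAT and DKK1 CTTTGTT. LEF1, TNFRSF19, LGR6 and APCDD1 rose and had no match in this window. A match describes the letters only.

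Genes that respond to activin and NODAL, the pathway blocked by SB431542, were mostly lower: 9 of 13 members with at least 1 FPKM lay below the median of all loci, and their median centred difference was -2.85. By the authors' test 3 of 14 fell and 3 rose (21.4% each), beside 19.7% and 10.2% of all tested loci. The share that fell was thus near that of all loci. SKIL, a feedback inhibitor of SMADs, fell from 45.8 to 0.692 FPKM, PMEPA1 from 9.21 to 0.296 and SMAD7 from 7.66 to 0.923. FST, follistatin, which binds activin, rose from 8.81 to 72.0. Among the 8 members that did not pass, 3 are given because of their size: TDGF1, the NODAL co-receptor, was 276 and 0.0678 (q = 0.0571 in the authors' deposited table), LEFTY1, a NODAL inhibitor, 19.0 and 0.0419 (q = 0.206) and NODAL itself 12.1 and 0.556 (q = 0.0675).

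BMP targets showed no shared direction. ID1 fell from 250 to 13.1 FPKM and ID4 from 8.06 to 2.13, while ID3 and MSX1 rose as given above. Of 12 tested BMP and GDF ligands and antagonists, 5 rose (41.7%) and 2 fell (16.7%). The antagonists CHRD, chordin, rose from 1.28 to 13.2, GREM1, gremlin, from 0.393 to 4.30 and NOG, noggin, from 0.18 to 1.80. Ligands went both ways: BMP4 and BMP2 fell, and BMP5 and GDF6 rose (q = 0.0040 and q = 0.0154 in the authors' deposited table). Of 17 FGF feedback genes tested 4 rose and 4 fell (23.5% each), beside 10.2% and 19.7% of all tested loci. Of the 17, 13 lay above the median of all loci, and the median centred difference was 0.35. DUSP6, an ERK phosphatase, rose from 1.85 to 38.6 and FOS from 13.2 to 41.1, whereas SPRY1 fell from 15.4 to 2.75 and ETV4 from 35.0 to 8.60. FGF2, a growth factor made by hESC themselves, fell from 80.0 to 6.64.

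Retinoic acid genes rose in 4 and fell in 4 of 13 tested cases (30.8% each). CRABP1, which binds retinoic acid in the cytoplasm and is known from the hindbrain and crest, rose from 105 to 2670 FPKM, 25.3-fold, and STRA6, the retinol transporter, from 3.56 to 42.4. DHRS3, which reduces retinal, fell from 28.3 to 0.853, and ALDH1A3, which makes retinoic acid, from 8.62 to 0.668. CRABP1 was listed at 385 in NPC and 3.87 in MESO. In the NOTCH pathway 5 genes rose (27.8%) and 3 fell (16.7%) of 18 tested, beside 10.2% and 19.7% of all tested loci. HES1, a target, rose from 9.56 to 28.2 and MFNG, a modifier of the receptors, from 0.573 to 5.94, beside DLK1 and DLL1. HEY2, also a target, and the receptor NOTCH3 fell (q = 0.0078 and q = 0.00046 in the authors' deposited table). In the hedgehog pathway the co-receptors BOC and CDON rose from 1.96 to 22.3 and from 5.76 to 37.5 and the receptor PTCH1 from 13.8 to 39.4, while GLI1, a target, fell from 8.09 to 1.69. The deposited table holds a second row for PTCH1, as for FST and WNT8A, so the levels of these genes are uncertain.

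Forkhead factors fell in 11 of 24 tested cases (45.8%) and rose in 3; FOXH1, the SMAD partner of NODAL signalling, fell from 52.9 to 8.40 FPKM and FOXO1 from 18.9 to 2.35. T-box factors rose in 0 and fell in 3 of 8 tested cases, among them TBX1 from 5.14 to 0.0332, and Iroquois factors rose in 2 and fell in 0 of 5, with IRX1 going from 1.10 to 10.3. Zinc finger genes with ZNF symbols rose in 52 (11.6%) and fell in 72 (16.1%) of 447 tested cases, near the shares of all loci. Of these ZNF503 rose from 0.162 to 34.0 and ZNF703 from 1.09 to 37.9. Nuclear receptors were led by NR6A1, which is active in early trunk development, at 21.4 and 102, and NR2F2, of crest and mesenchyme, at 0.0638 and 2.42.

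Most tested genes of cell division fell. Of 25 DNA replication genes 16 fell (64.0%) and 1 rose, with a median centred difference of -0.87: MCM5, a helicase subunit, fell from 119 to 20.6 FPKM, MCM6 from 82.3 to 20.9 and CDC6, which loads the helicase, from 47.1 to 9.60. Of 17 mitosis genes 11 fell (64.7%) and 0 rose, such as CCNB1, cyclin B1, from 164 to 78.7 and CDC20 from 104 to 39.5. CDKN1A, the inhibitor p21, rose from 33.0 to 89.4 and CCND2, cyclin D2, from 37.1 to 155, and CCNE1, cyclin E1, fell from 27.5 to 5.24. Seeding density and days in culture differed between the cell types, and their part in these values was not tested.

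Protein synthesis classes did not move together. Cytosolic ribosomal protein genes were above the median of all loci in 72 of 74 cases, with a median centred difference of 0.76, though only 12 of 75 passed as risen (16%) and 1 fell. Mitochondrial ribosomal protein genes fell in 22 of 68 cases (32.4%) and rose in 0, with MRPL16 at 63.0 and 12.3 FPKM. Aminoacyl-tRNA synthetases fell in 9 of 14 cases (64.3%) and rose in 1; TARS, for threonine, fell from 178 to 19.8. Proteasome subunits fell in 18 of 36 cases and rose in 0. Metallothioneins, which bind zinc and copper, fell in 5 of 9, MT1G from 141 to 8.56; these genes are close copies of each other and their single levels are uncertain.

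Hypoxia targets rose in 10 of 16 tested cases (62.5%) and 1 fell. NDRG1 rose from 2.55 to 81.8 FPKM, P4HA1, a collagen hydroxylase, from 19.6 to 142, BHLHE40 from 1.61 to 8.60 and MXI1 from 3.11 to 14.1. Cholesterol synthesis genes rose in 6 of 17 (35.3%) and fell in 0, led by INSIG1 from 51.0 to 216 and MSMO1 from 140 to 445. ATF4 targets, which respond to amino acid shortage, fell in 5 of 16 (31.2%) and rose in 2 (12.5%). Among all tested loci 19.7% fell and 10.2% rose, so the share that rose was near that of all loci. The amino acid transporter SLC7A5 fell from 235 to 21.7, whereas DDIT4, also a hypoxia and stress gene, rose from 60.5 to 383. Among membrane proteins of excitable cells, transmitter receptors fell in 10 of 29 tested cases (34.5%) and rose in 0. Potassium channels fell in 16 of 34 (47.1%) and rose in 4.

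**Figure D5:**
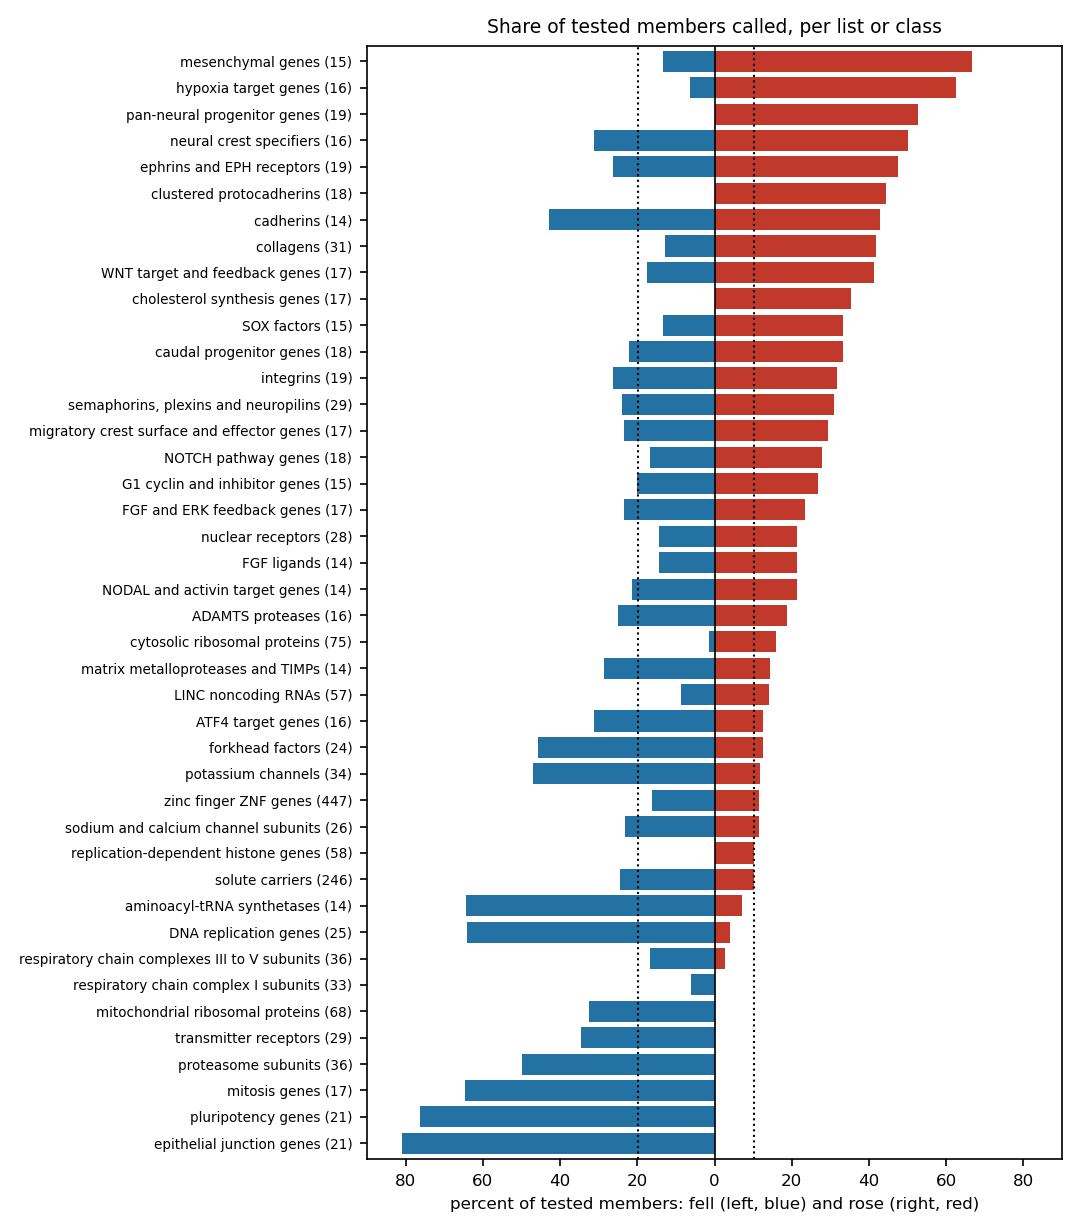
Bars give the percent of tested members that rose (red, right) and fell (blue, left) in each gene list or symbol class with at least 14 tested members, whose number is in parentheses. Dotted lines mark the 10.2% and 19.7% of all tested loci that rose and fell; mesenchymal, hypoxia and pan-neural genes reach furthest to the right, and epithelial junction (81%) and pluripotency genes (76.2%) furthest to the left.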

How the data were processed

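RNA-seq values of 2 hESC and 2 NCSC libraries were analysed as the authors combined them in 1 table. The submitters' processing notes name hg19 as the build and Cufflinks 2.2.1, featureCounts, Subread 1.5.2 and TopHat2 2.0.13 as tools. Which tool did which step, and how columns were scaled, is not given in the sources used here. Levels are deposited FPKM. The deposited test statistic is a signed score made by the authors. Per the file headers, the p-value and the q-value belong to the authors' own test; a p-value of 1 with a score of 0 was taken as not tested, and 0.000455 was the lowest q-value, shared by 1685 loci.

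Of 28992 rows, 1356 on other sequences were left out. Each symbol was reduced to its row of highest mean FPKM, which dropped 5425 rows. The 589 merged loci counted as loci and stayed out of gene lists. Symbols were set apart (18) where, in any table of the study, FPKM and score conflicted in sign, where FPKM had over 6 significant digits, or where, from a mean of 20 FPKM upwards, the quotient of log2 ratio and score lay below 0.4 times its median. Differences are log2(FPKM + 1), NCSC minus hESC, less the median. Medians of lists take members that reached 1 FPKM in hESC or NCSC.

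The limma fit planned for values per library could not be made, as each table holds 1 value per cell type, so calls are the authors'. Named genes are the 10 largest rises and falls, up to 4 called members per list with the largest differences, all crest and axis members and all HOX genes; cell type markers are named too. PAX6, HES5, NKX6-1, GDF7, AXIN2, TDGF1, LEFTY1, NODAL, COL1A1, VIM, CDH2 and FN1 were named after their values were seen. The same holds for CNN1, TAGLN, HEY2 and NOTCH3. Some members counted in the lists are not reported here. There were 36 lists (551 symbols) and 42 symbol classes. Members and lists were chosen with earlier results of these data known. Alternatives were pseudocounts of 0.1 and 5, filters, quantile normalization, no centring, hESC values of the other tables and normal p-values; some were chosen after seeing the data. The scripts were tested on simulated data. Tools were Python 3.11.15, pandas 2.3.3, numpy 2.4.6, scipy 1.17.1 and matplotlib 3.10.9. No per-library depth can be given, so precision rests on the authors' test.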

Additional observations from a re-analysis of the deposited data

How the results depend on the processing

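The number of loci that fell, 2937, became 1330 with a centred log2 difference of at least 1 required as well, 1553 with normal p-values computed from the authors' statistic and 1079 with such p-values and a centred fold, the last chosen after seeing the data. The number that rose, 1514, became 787 with normal p-values from the statistic. Counts made from the statistic leave out 180 loci without a finite value. Loci of at least 1 FPKM, all deposited rows, the loci set apart kept and merged loci left out moved both counts by less than 1.5 times, the last 2 chosen after seeing the data. Of 1347 values of 270 named genes under alternatives, 1343 kept their direction. With a pseudocount of 5 the centred differences of FOXA2 (0.0251), LHX6 (0.00578) and T (0.0187) turned positive, so these falls rest on low levels, and with hESC values of the other 3 tables that of UNC5D became 0.721. Of 78 list medians 55 kept their sign throughout. Medians of neuronal, placode, BMP target and SOX genes turned negative without centring, and that of crest derivatives at a minimum of 5 FPKM. Without the filter on low values, negative medians of several lists turned positive. Among them were forebrain (from -2.68 to 0.11), endothelial and blood, forkhead, T-box, keratin, integrin, potassium channel and transmitter receptor genes. The cause of these sign changes was not tested. No paired analysis was possible because the tables hold 1 value per cell type, and leaving out a replicate was not possible for the same reason. Depth is unknown, so no limit can be given for values of 0.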

Other observations

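CAT, catalase, rose from 0.147 to 22.9 FPKM in NCSC, and CHCHD2, a mitochondrial and nuclear protein, from 0.303 to 45.1. CAT was listed at 17.4 FPKM in NPC and 0.0721 in MESO, and CHCHD2 at 20.4 and 0.598. Both were near 0 in hESC. GAD1, the enzyme that makes GABA, rose from 0.992 to 13.1, and NRXN3, a synaptic adhesion protein, from 0.663 to 14.1. LRP2, megalin, rose from 0.882 to 20.3 and SMOC1 from 0.408 to 22.8. Of the linker histone genes, whose replication-dependent transcripts are poorly captured by poly-A selection, HIST1H1E rose from 0.697 to 10.9 FPKM and HIST1H1D from 0.355 to 5.23, while HIST1H1B, at 0.728 and 1.32, did not pass. PCDH18, a non-clustered protocadherin, was 15.9 in hESC and 109 in NCSC. These genes were picked after their values were seen.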
